A study of Mus musculus with 2 samples.

Results

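Integrins are receptors of paired alpha and beta chains that span the cell membrane and tie the extracellular matrix, or the surface of another cell, to the cytoskeleton. Laminins are cross-shaped trimers of an alpha, a beta and a gamma chain that form the mesh of basement membranes. In skeletal muscle each fibre is wrapped in a basement membrane rich in laminin with the Lama2 chain, which the fibre holds through the integrin of Itga7 and Itgb1 and through dystroglycan. White blood cells carry integrins built on Itgb2 or Itgb7, and some built on Itgb1, with which they leave vessels and enter tissue.

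The genes described here are the integrin and laminin genes on a mouse expression array, chosen by name: every non-control probe named as an integrin alpha or beta chain or as a laminin alpha, beta or gamma chain, with Itgax left out. This gave 39 genes of 34740 gene names, measured by 57 probes of 1 spot each; 24 genes had 1 probe, 12 had 2 and 3 had 3. Of the 39, 26 are integrin chains and 11 are laminin chains. The other 2, Itgbl1 (a secreted integrin beta-like protein) and Itgb3bp (a centromere protein named for binding Itgb3), match by name but are not integrin chains.

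Total RNA of skeletal muscle was hybridised on 2 one-colour arrays, 1 per group, with no replicates. The control was a male CD2F1/Slc mouse sample of 11 weeks of age injected with 100 µL of PBS, and the C26 sample came from the same strain, sex and age after 1000000 cells of the colon 26 carcinoma line had been placed under the skin of the flank, a model of the wasting called cachexia. The sources used here do not name the muscle, the days from implantation to sampling, or any pooling of mice. All 10 markers of skeletal muscle were measured, with a median log2 ratio of 0.04.

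A gene was taken as measured where both arrays read its brightest probe as well above background, which held for 33 of the 39 members. The other 6, Itga2 (a collagen receptor chain of platelets and epithelium), the leukocyte chains Itgad, Itgae and Itgb2l, the epithelial chain Itgb8 and the embryonic laminin Lama1, had no probe well above background on either array and no signal over 10.66. Values are processed signal, the scanner's background-subtracted spot intensity on a linear scale, and the log2 ratio of C26 over control after each array was scaled to its 75th percentile. The error beside a ratio comes from the errors that the scanning software gave the spots of its probe on the 2 arrays. Each member probe had 1 spot per array. Where a probe of another gene had several copies, their errors were pooled, which gives a smaller error. The error does not cover the spread between animals, so no test was run and each value describes these arrays. With bulk RNA, fewer cells of a type and less RNA per cell cannot be told apart.

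Itga7 and Itgb1, the laminin receptor of the muscle fibre, differed little between the arrays. All 5 measured leukocyte integrin chains were lower in C26, Itgb2 most, where 43.5% of measured genes were lower. The laminin chains of the muscle basement membrane Lama2, Lamb1, Lamc1 and Lama4 were lower in C26, and Lama5, Lama3 and Lamb3 were higher. No member was 2-fold different. Among the 19668 measured genes 1.25% passed 2-fold upward and 1.15% downward, which is 245 higher and 226 lower genes, 52.0% of them higher. That balance depended on the setting: 66.8% were higher with normexp background correction (131 and 65 genes), but 47.5% with quantile normalization and in the deposited table, 46.0% with loess, 45.2% with median scaling and 43.0% with the percentile taken over probes above background. At 1.5-fold, 4 members were lower (Itga11, Itgb2, Lamb1 and Itgbl1), which is 12.1% of the 33 against 4.83% of all measured genes, and none was higher, against 4.37%. The lower count was 3 with normexp, where Itgb2 at -0.56 no longer passed, and 5 when probes were averaged, where Itgb6 at -0.82 did. Differences of at least 2 scanner errors were seen upward in 1 member, Itga5, and downward in 5 (those 4 and Itgb6), against 8.19% and 7.57% of measured genes, and 11 of the 33 lay within 1 error of 0, against 55.8%. The median log2 ratio over the 33 was -0.06, beside 0.04 over all measured genes.

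The signals rest on short probes. For the chains on which the results turn, the first 30 of the 60 bases of each probe are given in lower case, with the position of the whole probe on mm9, the build in the file headers.
Itga7, chr10:128395274-128395333: ctctggccttactgtgctgtaccagtccag
Itgb1, chr8:131250081-131255976: gacacgggtgaaaatcctatttacaagagt
Itgb2, chr10:77027978-77028037: aaagctagagcatgagttatcataatcaag
Itga11, chr9:62631667-62631726: gtttcatctgaacaatgtcatctgttcccc
Lama2, chr10:26701380-26701439: cctgaccaccaacattaggttccgaggctg
Lamb1, chr12:32014411-32014470: ccgaggcagtcatctacaaataacccatca
Lamc1, chr1:155066156-155066215: actgtggcccttttcaatgtgccttcactt
The Itgb1 probe spans 5896 bases of genome, so it crosses an exon junction. The exon or untranslated region of the others was not annotated here.

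Some members have a pair of probes, which gives a measure of how single spots differ within 1 gene. The pair for Itga10, a collagen receptor chain of cartilage, share 54 bases, of which those within the first 30 are in capitals.
Itga10, chr3:96468377-96468436: agtcccTCCTGGGGACTGTCATGGTGAGCA
Itga10, chr3:96468383-96468442: TCCTGGGGACTGTCATGGTGAGCAAATGGT
Itgav, chr2:83646133-83646192: gggaatttagtggcaaagtatatattggta
Itgav, chr2:83643905-83643964: tttgcacaggcacttagaacaggtacacat
The first Itga10 probe read 190 in control and 172 in C26, and the second 156 and 184. Their log2 ratios were -0.07 and 0.31, a difference of 0.38 against a combined scanner error of 0.29. For Itgav the probes read 229 and 164, and 38.0 and 47.2, giving -0.41 and 0.38. That difference of 0.80 is over its combined error of 0.35, so the direction for Itgav depended on the probe. Over the 11 members with several measured probes, all probes of 6 had 1 sign and those of 5 did not.

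**Figure D1:**
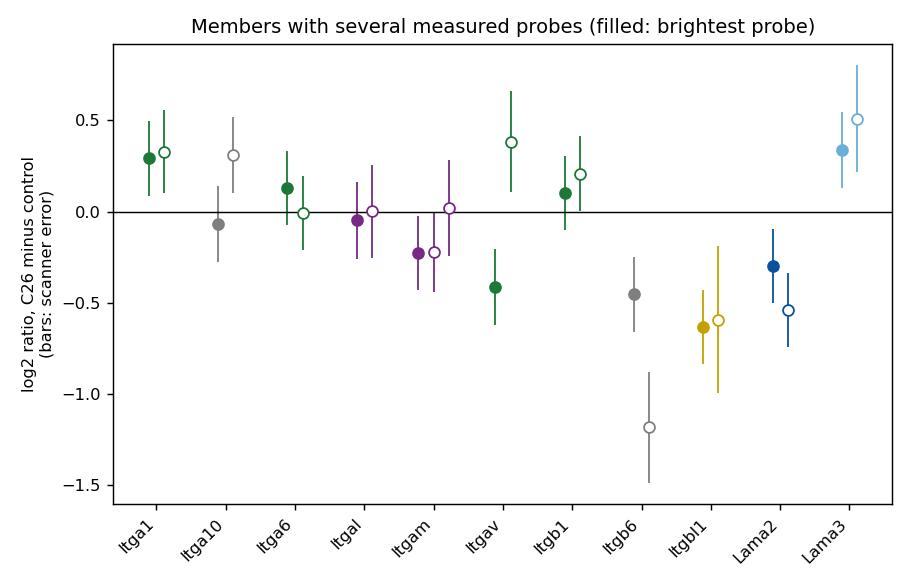
The log2 ratio (C26 minus control) of every measured probe is plotted for the 11 members with more than 1, with the brightest probe filled and bars for the scanner error. The Itgav probes lie at -0.41 and 0.38, on either side of 0, whereas both probes of Lama2 and of Itgbl1 lie below 0 and both of Itga1, Itgb1 and Lama3 above it.

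Among the 8 integrin chains listed for muscle fibres and their precursor cells, 6 were above 0 and 2 below, with a median log2 ratio of 0.12. Some of these chains, such as Itgb1 and Itga6, are not confined to muscle. Of all measured genes 56.5% were above 0. None of the 8 was 1.5-fold different, where 4.37% of measured genes were that much higher and 4.83% lower. Itga7, the main laminin-binding alpha chain of the adult fibre, read 9215 in control and 9486 in C26, a log2 ratio of 0.11 (error 0.20), which was just below 0 with quantile normalization and in the deposited value table. Its partner Itgb1, the beta chain shared by most matrix-binding integrins, read 967 and 988, a ratio of 0.10 (error 0.20), and its second probe gave 0.21. The ratios of Itga7 and Itgb1 differed by 0.01 (combined error 0.29), a difference well within the error.

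Itga6, a laminin-binding chain also found on vessels and satellite cells, read 3288 and 3421, a log2 ratio of 0.13 (error 0.20), and -0.0064 by its other probe. Itga1, a collagen receptor chain, read 239 and 278, at 0.29 (error 0.21), and 0.33 by its second probe. Itga3, a laminin receptor chain, read 72.0 and 83.95, at 0.29 (error 0.23). These ratios are close to the scanner error of a pair of spots.

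Itga5, the alpha chain of the classical fibronectin receptor, had the highest ratio of the measured members, next to Lamb3 at 0.50. It read 64.4 in control and 87.0 in C26, a log2 ratio of 0.51 (error 0.24), or 1.42-fold higher, from 1 dim probe; with normexp background correction it was 0.28, below Lama5 at 0.40 and Itgb5 at 0.33. Itga9, a chain that binds tenascin and osteopontin, was below 0 at -0.12 (error 0.20), from 491 and 430. Itgav, the alpha chain of vitronectin receptors, stood at -0.41 by its brightest probe and is uncertain as above.

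**Figure D2:**
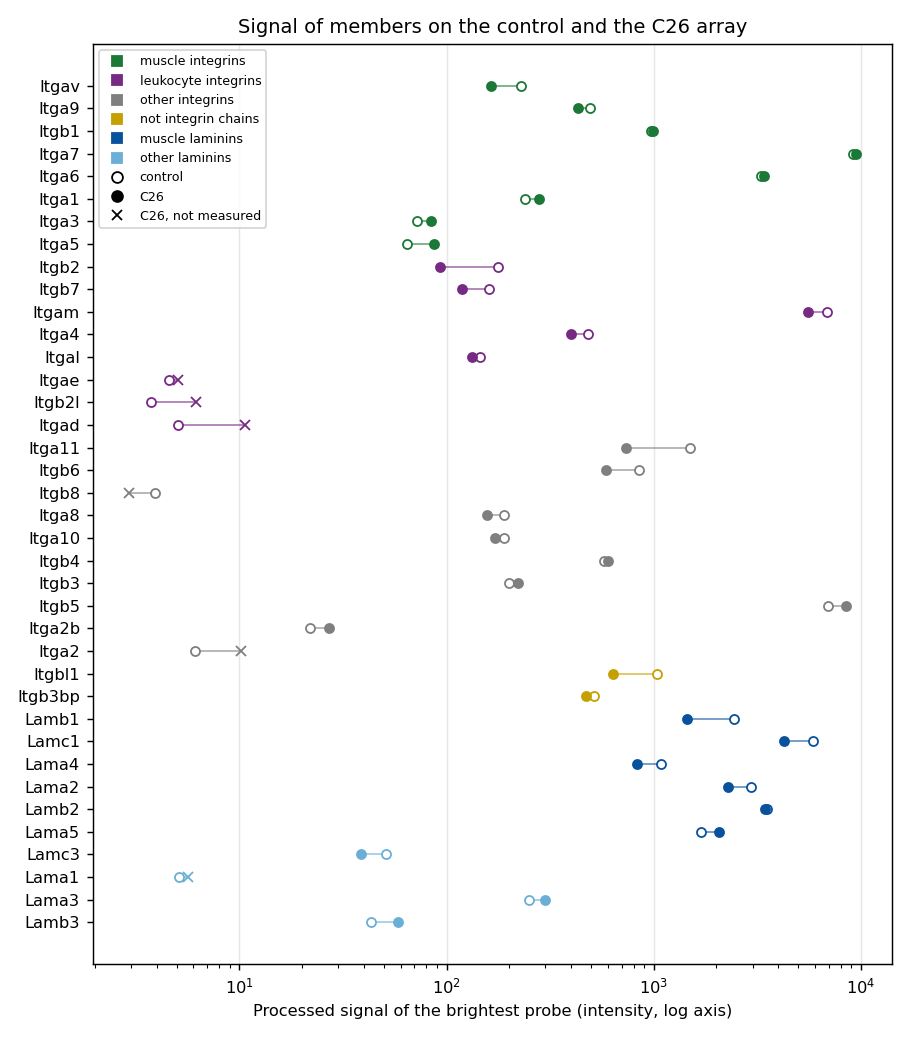
Processed signal of the brightest probe of the members on a log axis, with control as open and C26 as filled circles, joined by a line and coloured by list; crosses mark the C26 signal of the 6 members not well above background. Itga7 and Itgb1 overlap between arrays, and Itga11 and Itgb2 show the longest lines among measured members.

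All 5 measured leukocyte integrin chains had log2 ratios below 0, where 43.5% of measured genes did, and their median was -0.23. Itgb2 (CD18), the beta chain shared by LFA-1 and Mac-1, read 177 in control and 93.1 in C26, a log2 ratio of -0.85 (error 0.21), or 1.81-fold lower. Itgb7, the beta chain of gut-homing lymphocyte integrins, read 160 and 119, at -0.36 (error 0.21). Of the 5, Itgb2 was the 1 past 1.5-fold and the 1 lower by at least 2 scanner errors. With normexp it stood at -0.56 and 0 of the 5 passed 1.5-fold.

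The alpha chains that pair with Itgb2 were closer to 0 than Itgb2 itself. Itgam (CD11b), the Mac-1 chain of myeloid cells, read 6855 and 5571 with its brightest probe, a log2 ratio of -0.23 (error 0.20). That value is also the median of the list. The other Itgam probes were far dimmer, at 116 and 94.7, and 50.6 and 48.8, and gave -0.22 and 0.02. Itgal (CD11a), the LFA-1 chain of lymphocytes and other leukocytes, read 145 and 133, at -0.05 (error 0.21), and 0.0012 with a second probe. Itga4, the alpha chain of VLA-4, which binds Vcam1 and fibronectin and is made by leukocytes and by muscle precursors, read 484 and 400, at -0.21 (error 0.20).

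The median of the leukocyte chains lay 0.35 below that of the muscle chains on the log2 scale. The lists overlapped: leukocyte chains ran from -0.85 to -0.05 and muscle chains from -0.41 to 0.51, so that Itgav and Itga9 fell within the leukocyte range. Between the beta chains Itgb2 and Itgb1 the log2 ratios differed by -0.96 (combined error 0.30). Left out of the list by name, Itgax read 416 in control and 20.7 in C26, a log2 ratio of -4.26 (error 0.31). Its C26 signal was near the lowest taken as well above background on that array, 14.1. With Itgax the leukocyte median was -0.29. Without Itga4 the median was -0.29 as well.

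**Figure D3:**
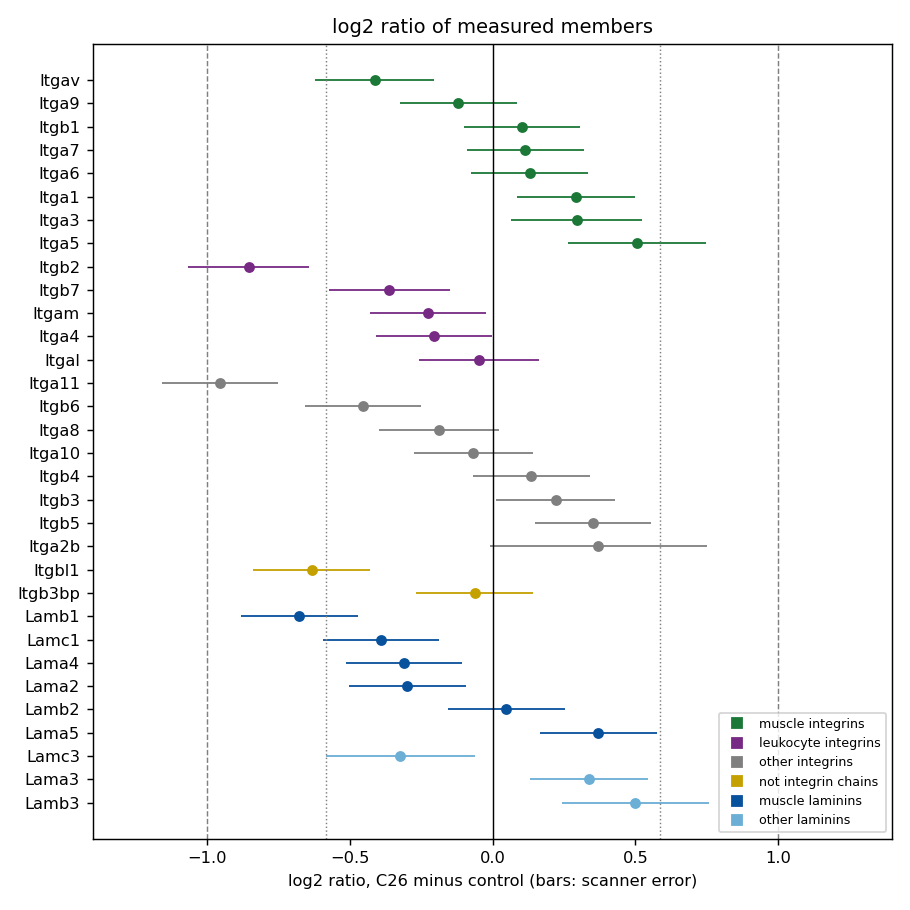
The log2 ratio (C26 minus control) of the measured members is drawn with its scanner error, ordered within lists; dotted lines stand at 1.5-fold and dashed lines at 2-fold. The 5 leukocyte chains lie between -0.85 and -0.05, and the 8 muscle chains between -0.41 and 0.51.

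General leukocyte markers were mostly lower too. Of the 7 measured of 8 such markers, 6 were below 0, where 43.5% of measured genes were, and their median was -0.55. They ran from the actin bundler Lcp1 at -1.02 to Cd37 at 0.39, with Ptprc (CD45) at -0.59 and Coro1a at -0.24. Their summed signal was 2821 in control and 2448 in C26. Cd53 was not measured. Macrophage markers had a median of -0.14 over 11 of 12, with Cd68, a lysosomal protein of macrophages, at -1.35 and Lyve1 at 0.79, and summed to 8348 and 6285. Dendritic cell markers had a median of -0.70 over 6 measured of 9, with 4 below 0 and 2 above. The antigen-presentation genes H2-Aa, H2-Ab1 and Cd74 stood at -1.09, -0.81 and -0.76, and Cd209a at -0.63. Flt3 and Zbtb46 stood at 0.20 and 0.44. The list summed to 8018 in control and 4444 in C26, and Xcr1, Clec9a and Ccr7 were not measured. Neutrophil markers (6 measured of 9, median 0.18) and lymphocyte markers (7 of 12, median -0.08) had S100a8 at 2.46 and Gzma at -1.07 at their extremes, and their summed signals were 34491 and 28743, and 6029 and 6226. Most of the neutrophil sum was Csf3r, at 33121 and 26235, whereas S100a9 stood at 2.35. Most of the lymphocyte sum was Cd4, at 3141 in control and 3485 in C26, with Nkg7, at 1956 and 1957. Ltf, Ngp and Mmp8 among neutrophil markers, and Cd3d, Cd3g, Cd8a, Ms4a1 and Klrb1c among lymphocyte markers, were not measured. The part of leukocyte number in the integrin values was not tested.

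Of the 8 measured integrin chains of other cells, 4 were above 0 and 4 below, where 56.5% and 43.5% of measured genes were. Itga11, a receptor chain for fibrillar collagen on fibroblasts, was the lowest of all members. It read 1504 in control and 738 in C26, a log2 ratio of -0.95 (error 0.20), or 1.94-fold lower. Across the alternatives it lay between -1.01 and -0.93, past 2-fold in 4 of 9. Its ratio was lower by 1.25 (combined error 0.29) than that of Itga1, another collagen receptor chain, while the probes of Itga10 gave -0.07 and 0.31.

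Itgbl1, the secreted relative, read 1043 and 639, at -0.63 (error 0.20), and its second probe gave -0.59. Markers of fibroblasts were lower too, 7 of 8 below 0, where 43.5% of measured genes were. They had a median of -0.36, from Cd248 at -0.92 to Dpep1 at 0.10, and a summed signal of 122762 in control and 92317 in C26. Their part in the Itga11 and Itgbl1 values was not tested. Itgb3bp stood at -0.06 (error 0.20).

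The beta chains that pair with Itgav went apart. Itgb5, a vitronectin receptor chain, read 6969 and 8456, a log2 ratio of 0.35 (error 0.20), and Itgb3, of platelets and other cells, read 199 and 221, at 0.22 (error 0.21). Itgb6, an epithelial chain that activates latent TGF-beta, read 851 and 590, at -0.45 (error 0.20). Its second, dim probe read 56.9 and 23.8, at -1.18, so the sign was shared but the size was not. The ratio of Itgb6 was lower than that of Itgb5 by 0.81 (combined error 0.29).

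Itgb4, the hemidesmosome beta chain also made by Schwann cells, read 575 and 600, at 0.13 (error 0.20). Itga8, a chain of smooth muscle and other contractile cells, read 189 and 157, at -0.19 (error 0.21). Itga2b, the platelet chain, was near background at 21.9 and 27.0, with 0.37 (error 0.38). Of 4 measured of 7 platelet markers 3 were above 0, where 56.5% of measured genes were. They had a median of 0.51, from Pf4 at -0.16 to Treml1 at 1.12. Their summed signal was 2042 in control and 1917 in C26, most of it from Pf4 at 1788 and 1517. Gp9, Gp1bb and Gp6 were not measured, and the part of platelets in the Itga2b and Itgb3 values was not tested.

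The laminin chains lay on both sides of 0. Over 10 measured chains, 5 were above 0 and 5 below, where 56.5% and 43.5% of measured genes were. Their median was -0.12, which turned to 0.05 when the dim Lama1 was kept. Only Lamb1 was at least 1.5-fold lower, against 4.83% of measured genes. It was also the only chain lower by at least 2 scanner errors, against 7.57%. No chain was higher by either measure, so most of the differences below are small beside the error. The 6 chains of muscle, synaptic and vessel basement membranes had a median of -0.30.

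Lamb1, the beta chain of the common muscle and vessel laminins, was lowest. It read 2434 in control and 1449 in C26, a log2 ratio of -0.68 (error 0.20), or 1.598-fold lower. Lamc1, the gamma chain of nearly all laminins, read 5845 and 4241, at -0.39 (error 0.20). Lama2, the alpha chain whose loss causes a congenital muscular dystrophy, read 2940 and 2274, at -0.30 (error 0.20), and its other probe read 1815 and 1188, at -0.54. Lama4, an alpha chain of vessels and the nerve-muscle synapse, read 1080 and 828, at -0.31 (error 0.20). Thus the 3 chains that build the laminin of the fibre, Lama2, Lamb1 and Lamc1, all had lower values on the C26 array. The fibroblast markers given above, with 7 of 8 below 0 and a median of -0.36, were lower alongside these chains and their basement membrane partners, and their part was not tested.

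Other chains of the same tissues did not share this. Lamb2, the beta chain concentrated at the synapse, read 3518 and 3460, at 0.05 (error 0.20), a sign that turned in 5 of 9 alternatives. Lama5, an alpha chain of vessels and the synapse, read 1690 and 2078, at 0.37 (error 0.20), or 1.29-fold higher. The ratio of Lamb1 was lower than that of Lamb2 by 0.72 (combined error 0.29). Lama2 and Lama4 were lower than Lama5 by 0.67 and 0.68 (combined error 0.29 each). Endothelial markers were above 0 in 10 of 10, where 56.5% of measured genes were. Their median was 0.26, and their summed signal 13206 in control and 16421 in C26. Of the 10, 4 lay within 1 scanner error of 0, among them Kdr at 0.01, which gave -0.63 by its other probe. Vessel laminins hold Lama5 but also Lama4, Lamb1 and Lamc1, which were below 0. The part of endothelial cells in these values was not tested.

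Lama3 and Lamb3, an alpha and a beta chain of epithelial laminin, which anchors hemidesmosomes, were above 0. Lama3 read 250 and 300, a log2 ratio of 0.34 (error 0.21), with 0.51 from a second probe. Lamb3 read 43.3 and 58.2, at 0.50 (error 0.26). The receptor chains for epithelial laminin, Itga3, Itga6 and Itgb4, at 0.13 to 0.29, were above 0 too, as were 56.5% of measured genes. Epithelial markers had 3 of 5 measured above 0 with a median of 0.11, summing to 804 in control and 1007 in C26, with Epcam and Krt8 not measured; their part was not tested. Lamc3, a gamma chain of nerve and other tissues, read 50.8 and 38.6, at -0.32 (error 0.26).

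**Figure D4:**
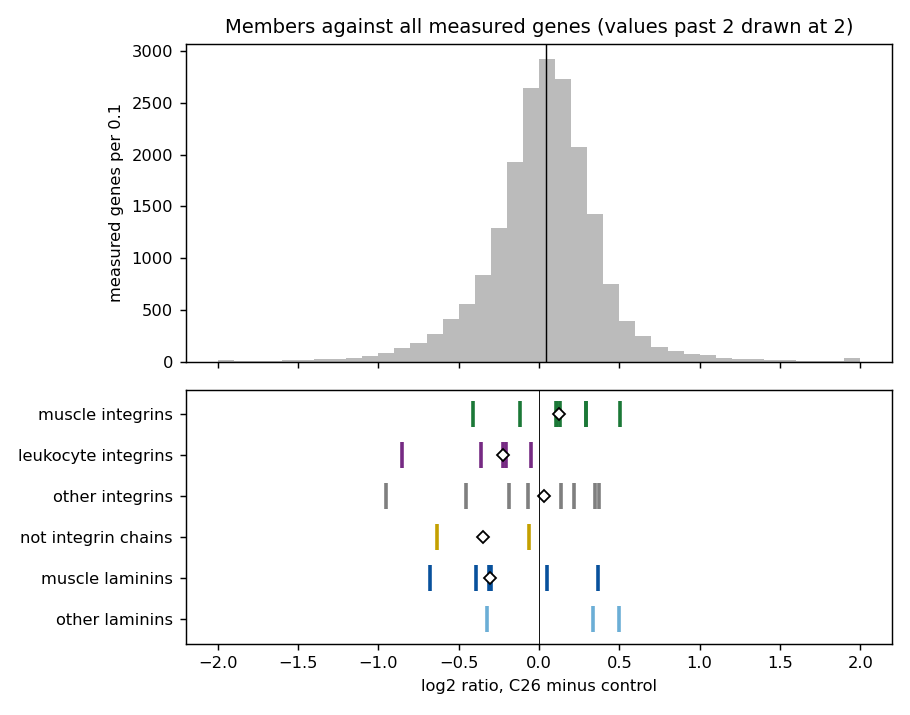
The upper panel counts all 19668 measured genes by log2 ratio (C26 minus control, median 0.04 as a line), and the lower panel marks measured members by list, with the list median as a diamond except for the other laminins. The medians of the leukocyte integrins (-0.23) and muscle laminins (-0.30) lie left of 0, and that of the muscle integrins (0.12) right of it.

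The stretch before the gene start was read for all members with a promoter window, whether higher or lower in C26. RefSeq promoter windows (GRCm38.p6) matched 25 of the 39 members. Shown are the 250 bases before the start for 2 chains of the fibre laminin and for Itgam, with capitals on the GC box (GGGCGG, an Sp1-type site) and the PU.1-type ETS motif (GAGGAA), on either strand.
Lama2, chr10:27616943-27617192, minus strand: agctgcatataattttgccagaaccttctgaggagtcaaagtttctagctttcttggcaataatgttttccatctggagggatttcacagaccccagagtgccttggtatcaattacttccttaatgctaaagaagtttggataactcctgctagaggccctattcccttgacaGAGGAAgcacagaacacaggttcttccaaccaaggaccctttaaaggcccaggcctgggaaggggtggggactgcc
Lamb1, chr12:31265043-31265292, plus strand: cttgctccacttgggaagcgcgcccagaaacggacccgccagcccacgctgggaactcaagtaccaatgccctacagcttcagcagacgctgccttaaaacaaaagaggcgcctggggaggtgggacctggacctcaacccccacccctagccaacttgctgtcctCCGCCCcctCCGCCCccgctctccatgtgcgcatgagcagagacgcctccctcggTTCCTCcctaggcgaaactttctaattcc
Itgam, chr7:128062390-128062639, plus strand: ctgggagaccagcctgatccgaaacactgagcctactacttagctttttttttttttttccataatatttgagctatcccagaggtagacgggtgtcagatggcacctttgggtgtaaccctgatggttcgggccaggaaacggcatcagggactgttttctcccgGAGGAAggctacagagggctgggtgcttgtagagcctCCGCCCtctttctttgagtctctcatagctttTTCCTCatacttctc
The Lama2 window held 0 GC boxes and 1 ETS motif, the Lamb1 window 2 and 1, and the Itgam window 1 and 2, with no base shared between motifs. Of the 28 windows of members, 10 held a GC box and 14 the ETS motif, where 32.7% and 23.3% of all 32851 windows did. The TATA box (TATAAA) was in 0 of the 28, against 12.4% of all. These are matches of letters and show no binding. Members that were higher in C26, such as Itga5, Lama5 and Lamb3, held the ETS motif too. Lamc1 and Itgb2, which were lower, had no window. A link between motifs and ratios was not tested.

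Outside the cell, the partners of laminin in the basement membrane were lower. Of 12 measured, 11 were below 0, with a median of -0.55, and 5 were at least 1.5-fold lower, where 43.5% of measured genes were below 0 and 4.83% that much lower. The 5 were Nid2 at -1.04 (error 0.21), a nidogen that links laminin to type IV collagen; Sparc, a collagen-binding matrix protein, at -0.76; Col18a1 at -0.67; Col4a1, a chain of type IV collagen, at -0.66 (error 0.06); and Ntn4, a netrin that binds laminin, at -0.61. Nid1 stood at -0.56. The laminin receptors that are not integrins differed little, Dag1 (dystroglycan) at -0.05 and Bcam at 0.20. Agrn, which joins laminin to dystroglycan, stood at -0.17.

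Other matrix ligands of integrins had a median of -0.66 over 12 of 13, with 6 at least 1.5-fold lower and 1 higher, against 4.83% and 4.37% of measured genes. Col3a1 and Col1a1, the collagens that Itga11 and Itga1 bind, stood at -1.996 and -1.81, Fbn1 at -1.81, Postn at -1.26, Spp1 (osteopontin) at -1.25 and Fn1 (fibronectin), the ligand of Itga5, at -0.87. Ccn1, a matricellular ligand of several integrins, stood at 1.39. Tnc was not measured.

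Inside the cell, the adaptors and other proteins of integrin adhesions, not all of which bind integrin tails, had a median of -0.05 over 30 of 34. Of the 30, 14 were above 0 and 16 below, where 56.5% and 43.5% of measured genes were. The share past 1.5-fold, 1 of 30 in each direction, was near that of all measured genes. Pxn (paxillin) was 1.5-fold higher at 0.60 (error 0.22), and Apbb1ip (RIAM), a leukocyte-rich activator of talin, was 1.5-fold lower at -0.60 (error 0.22). Tln1 (talin), Ilk and Fermt2 (a kindlin), parts of the muscle adhesion, stood at 0.0011, 0.01 and -0.07. Other adaptors lay further out, with Vcl at -0.32 (-0.05 by its other probe), Lims1 at -0.29, Tln2 at -0.17 and Flnc at 0.41. Itgb1bp2 (melusin), a muscle protein that binds the Itgb1 tail, read 5338 and 3683, at -0.46 (error 0.20).

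The ligands of leukocyte integrins lay on both sides of 0. All 9 were measured, 6 above 0 and 3 below, where 56.5% and 43.5% of measured genes were, and their median was 0.07. None was 1.5-fold different, where 4.37% of measured genes were that much higher and 4.83% lower. Icam2, a ligand of LFA-1 on endothelium, stood at 0.07, Vcam1, the ligand of VLA-4, at -0.14, Icam1 at 0.31 (error 0.32), and the ends of the list were F11r at 0.39 and Jam3 at -0.30.

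**Figure D5:**
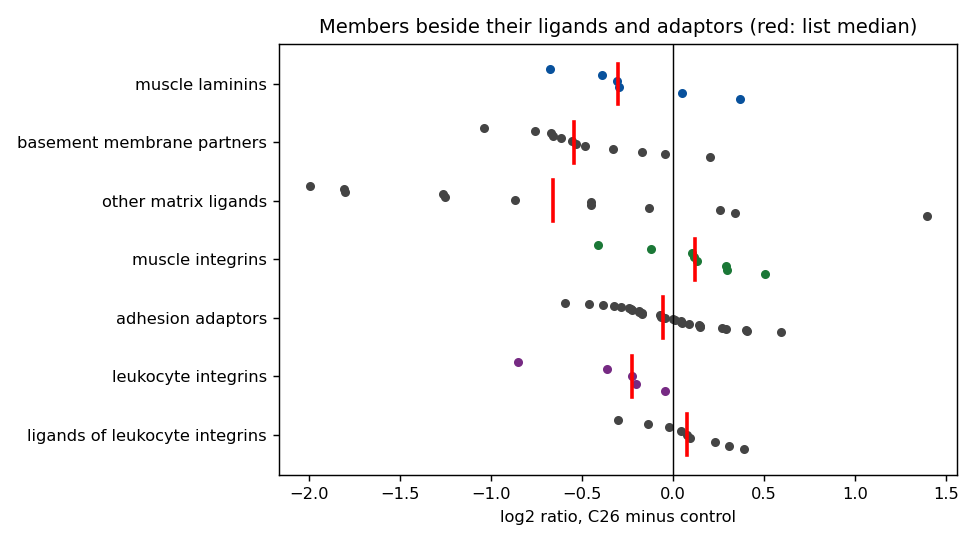
Each point is the log2 ratio (C26 minus control) of a measured gene, by list, with the list median in red. Muscle laminins (-0.30), basement membrane partners (-0.55) and other matrix ligands (-0.66) lie left of 0, while muscle integrins (0.12), adhesion adaptors (-0.05) and ligands of leukocyte integrins (0.07) lie near it.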

How the data were processed

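Labelled RNA was read on Agilent one-colour arrays. The deposited scanner files hold spot intensity, as processed signal already background-subtracted by Agilent Feature Extraction 10.7.1.1 per the file headers (the submitters' processing notes list 9.5.1.1); probe positions are on mm9. A deposited value table, whose scale is not stated, matched the quantile-normalized signals within 0.01 log2 for 99.9% of values on both arrays.

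Control spots and outlier spots (110 in control, 91 in C26) were left out, log2 signals were reduced by each array's 75th percentile (signals of 262.3 and 249.5), and each gene took its brightest probe. No spot was saturated, and 50.4% and 53.8% of spots were well above background. The median error over measured genes was 0.20, and the SD between copies of probes spotted at least 8 times was 0.087 and 0.086 log2. Calculations used Python 3.11.15, numpy 2.4.6, pandas 2.3.3 and limma 3.58.1 (normexp, offset 50). The scaling was run on the control array's own signals with known shifts and random noise added. Because the shifts were put in by design, that run checks the calculation and not how the 2 arrays compare. A gene is counted among the members but not reported here. By rule, all other members were named, and of each partner list the measured genes past 1.5-fold or else the 2 highest and 2 lowest; markers were to be given as counts, medians and ranges. Nid1, Dag1, Bcam, Agrn, Icam2, Tln1, Tln2, Ilk, Fermt2, Vcl, Lims1, Flnc, Itgb1bp2 and the single marker genes fall outside the rule. They were chosen after their values were seen. The members and lists were chosen with earlier results of these data known. With 1 array per group the number of arrays limits the precision.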

Additional observations from a re-analysis of the deposited data

How the results depend on the processing

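No paired analysis was possible because each group had 1 array. The medians of the muscle and leukocyte integrins and their difference kept their sign under the alternatives run: the muscle median ran from 0.03 to 0.13, the leukocyte median from -0.33 to -0.13, and the difference from -0.42 to -0.25, the last 2 nearest 0 when dim probes were kept. The laminin median ran from -0.30 (muscle laminins alone) to 0.05, and that over all members from -0.12 to 0.05; both turned above 0 when dim probes were kept. The alternatives with Itgax and with Itga4 among muscle chains were added after seeing the data. Over all genes, the counts at least 2-fold higher and lower were 131 and 65 with normexp, and 1579 and 1316 with no filter on dim probes, where more genes were counted. The lower count was 139 with the stricter filter. At 1.5-fold they were 859 and 949, and at 3-fold 68 and 45. Of the values for single members, 290 stayed within their error and 4 moved: Itgb2 to -0.56, short of 1.5-fold, and Lamb3 to 0.20 with normexp, and Itgav to -0.01 and Itgb6 to -0.82, past 1.5-fold, when probes were averaged. Many of the 290 could not move. The filters on dim probes left single values as they were, and so did averaging where a member had 1 measured probe. Scaling by the median or by another percentile shifted all members alike, and the deposited table nearly repeats quantile normalization. Why normexp moved values was not tested.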
